A study of Mus musculus with 2 samples.

Results

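Signals of 10 genes of the extracellular matrix and of the stromal niche of bone marrow were compared between LSK cells of Ago2 Hem KO and Control mice. The genes were Col5a1, Col1a1, Col1a2, Bgn, Sparc, Mmp2, Igfbp7, Cxcl12, Pdgfrb and Emcn, out of 19057 named genes on the array, and they were covered by 20 of its 45281 probes. They were selected on their signals on these same 2 arrays, since some were higher and some lower in Ago2 Hem KO, so their differences are given as a description. All probes annotated to the 10 symbols were taken, whatever their signal.

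LSK cells carry Sca1 and c-Kit and lack the surface markers of mature blood cells, a gate that holds blood stem cells and early progenitors. Both samples were total RNA of bone marrow LSK cells of the C57BL/6J strain, of the genotypes Ago2 Hem KO and Control. Each genotype had 1 sample on 1 Illumina bead array, so there is no spread between replicates, no test and no p-value for any difference. The labels give neither how Ago2 was deleted nor how many animals made up a sample, nor their age or sex. Ago2 encodes an Argonaute protein, which carries microRNAs to the messenger RNAs they repress.

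The extracellular matrix of marrow is made mainly by cells that are not of the blood lineage, among them reticular stromal cells, osteoblasts, fibroblasts, pericytes and endothelial cells. Collagens form its fibres, small proteoglycans such as biglycan coat them, and matrix metalloproteinases cut them. Stromal cells also hold stem cells in place, above all through the chemokine CXCL12, whose receptor CXCR4 lies on the stem cells. The values of the 10 genes are set beside those of other matrix genes and of markers of the cells that could carry them.

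The start regions of 4 of the genes are shown because these genes carry the pattern described here: Col5a1 and Igfbp7 were higher in Ago2 Hem KO, Bgn was lower, and Emcn, well above background on both arrays, differed little. The sequences are from RefSeq, build GRCm38.p6, run 5′ to 3′ along the gene, and hold 250 bases before and 50 after the annotated start site. The table of start regions matched 7 of the 10 genes, without Mmp2, Col1a1 and Pdgfrb. Capitals mark GC boxes, the letters GGGCGG or CCGCCC, which transcription factors of the Sp family bind. Col5a1 lies at chr2:27886175-27886474 (plus strand), Igfbp7 at chr5:77407996-77408295 (minus strand), Bgn at chrX:73483351-73483650 (plus strand) and Emcn at chr3:137340828-137341127 (plus strand).
Col5a1: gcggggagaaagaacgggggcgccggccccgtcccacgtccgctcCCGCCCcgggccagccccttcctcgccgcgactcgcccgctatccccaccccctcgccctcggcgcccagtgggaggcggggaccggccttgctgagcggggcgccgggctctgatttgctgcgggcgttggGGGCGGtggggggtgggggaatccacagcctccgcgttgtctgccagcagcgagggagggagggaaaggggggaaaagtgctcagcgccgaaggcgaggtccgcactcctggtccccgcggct
Igfbp7: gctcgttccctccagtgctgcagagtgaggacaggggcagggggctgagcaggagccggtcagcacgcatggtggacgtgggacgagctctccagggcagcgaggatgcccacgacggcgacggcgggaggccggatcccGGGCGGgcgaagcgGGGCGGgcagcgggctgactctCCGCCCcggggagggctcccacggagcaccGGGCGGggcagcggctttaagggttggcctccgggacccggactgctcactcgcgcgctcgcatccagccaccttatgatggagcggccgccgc
Bgn: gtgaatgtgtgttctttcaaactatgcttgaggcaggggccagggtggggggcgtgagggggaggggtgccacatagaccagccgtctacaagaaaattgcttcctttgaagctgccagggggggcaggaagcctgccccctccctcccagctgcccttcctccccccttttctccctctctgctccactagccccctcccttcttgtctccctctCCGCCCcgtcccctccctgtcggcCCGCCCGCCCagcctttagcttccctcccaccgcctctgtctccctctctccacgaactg
Emcn: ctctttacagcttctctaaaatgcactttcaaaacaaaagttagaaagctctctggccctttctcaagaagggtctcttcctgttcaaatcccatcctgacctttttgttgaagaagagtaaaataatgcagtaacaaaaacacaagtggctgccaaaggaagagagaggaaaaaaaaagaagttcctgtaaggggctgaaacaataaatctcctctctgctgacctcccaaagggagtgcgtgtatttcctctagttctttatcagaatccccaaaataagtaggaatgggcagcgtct

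GC boxes numbered 2 in the Col5a1 region, 4 in that of Igfbp7, 3 in that of Bgn, of which 2 overlap, and 0 in that of Emcn. Of 32851 such regions in the table, 35.7% held at least 1. The regions of Col5a1 and Igfbp7 were rich in G and C, at 75% and 73.3%, that of Bgn had 63.7%, and that of Emcn had 41.0%, against a median of 52.7% over all regions. The letters AGGAAG, on either strand, hold the core of ETS factor sites and occurred 1 time in Col5a1, 3 times in Bgn, 2 times in Emcn and 0 times in Igfbp7, and 35.4% of all regions held them. TATAAA, searched on both strands like the other motifs, was in none of the 4, and 13.6% of all regions held it. CCAAT was in none of the 4 and in 37.4% of all regions. The GATA factor letters AGATAA were in none of the 4 and in 11.2% of all regions. The genes that were higher and the gene that was lower thus both had GC boxes. The other matched regions belong to genes that were not detected on either array. Of these, Cxcl12 held 5 GC boxes, Col1a2 held 2 and Sparc held 0, so GC boxes did not mark the genes that differed. These letters describe the sequence and show no binding.

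A mean bead signal and a detection p, the share of 936 negative control probes at least as bright, were deposited for each probe and array. A probe is called detected here where that p was under 0.01. On the Ago2 Hem KO array 34.4% of probes were detected and on the Control array 32.8%, and the background averaged 87.8 (SD 4.38) and 84.7 (SD 4.20). Of the genes of the sort gate and of blood cells, Kit had signals of 2793 in Ago2 Hem KO and 2071 in Control, and Cd34 497 and 359. Ptprc, which encodes the blood cell surface protein CD45, was detected in Ago2 Hem KO only, at 109 against 94.6. Flt3, Slamf1 and Hlf were not detected on either array. No probe was assigned to Ly6a, which encodes Sca1, in the annotation as used here. All 3 probes of the targeted gene, Ago2, read lower in Ago2 Hem KO, at 179.5, 181 and 103 against 288, 226 and 106 in Control. Whether they read the stretch that was deleted is not stated in the labels.

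Of the 10 matrix and niche genes, 6 were detected on at least 1 array, through 6 of the 20 probes in Ago2 Hem KO and 5 in Control. Log2 differences subtract Control from Ago2 Hem KO, after background correction, an offset of 16 and quantile normalization. Igfbp7 was more than 2-fold higher in Ago2 Hem KO, as were 0.304% of the 8212 genes detected on both arrays. Mmp2 and Bgn were at least 2-fold lower, as were 0.134% of those genes. Col5a1 was detected in Ago2 Hem KO only, with a lower bound of its fold above 2, as had 0.909% of the 440 genes detected there only. Pdgfrb and Emcn differed by less than 1.5-fold. Since the genes were selected on these values, nothing is read from their counts against the shares of all genes.

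**Figure D1:**
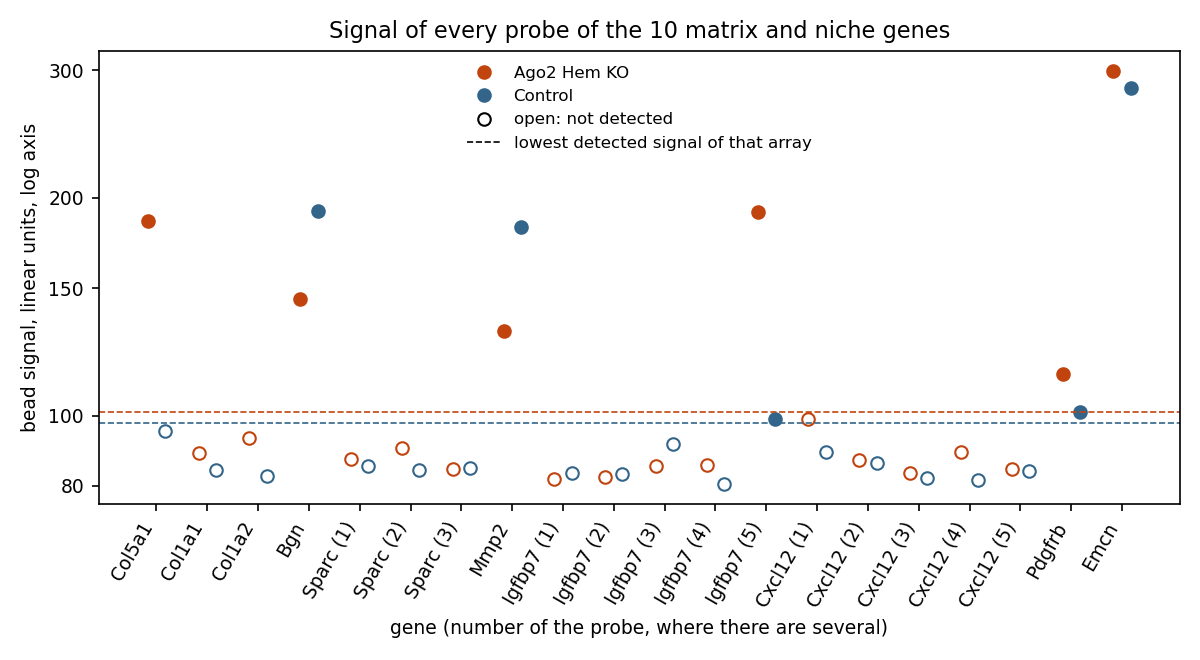
Signal of each of the 20 probes (log axis) in Ago2 Hem KO (orange, left) and the Control sample (blue, right), with filled points detected and open points not detected, and dashed lines at the lowest detected signal of each array. Col5a1 and the last Igfbp7 probe are higher in Ago2 Hem KO, Bgn and Mmp2 are lower, and the 14 probes not detected on either array lie between 80.5 and 98.8.

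Col5a1 encodes a chain of type V collagen, which starts and thins the fibres of type I collagen. Its probe had a signal of 186 in Ago2 Hem KO, brighter than every negative control, against 95.1 in Control, where 23 of the 936 negative controls were as bright. The Ago2 Hem KO signal lay 22.3 background SDs above the background mean and the Control signal 2.47. With the Control value at its bound, Col5a1 was higher in Ago2 Hem KO by at least 3.37-fold, the highest such bound among the 440 genes detected there only. Without any correction the ratio of the signals was 1.95, and in the authors' value table it was 1.67, so how large the fold is depends on how much of the Control signal is taken for background. A single probe represented the gene on the array.

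Igfbp7 encodes a secreted protein that binds insulin-like growth factors weakly and is laid down in vessel walls. Only 1 of its 5 probes was detected, with a signal of 191 in Ago2 Hem KO against 98.9 in Control, where 6 negative controls were as bright. On the log2 scale it differed by 1.76, or 3.39-fold, rank 2 of the 8212 genes. The other 4 Igfbp7 probes were not detected on either array, with signals of 81.8, 82.2, 85.1 and 85.4 in Ago2 Hem KO and 83.2, 83.0, 91.2 and 80.5 in Control. The difference thus rests on 1 probe that the others do not repeat. Whether that probe reads Igfbp7 RNA was not checked, since its sequence was not used here, and the 3.39-fold holds for Igfbp7 only if its annotation is right. Among 258 genes with 5 probes that were detected on both arrays, 21.3% were detected through 1 probe only. Which part of the transcript each probe reads was not analysed here.

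Mmp2 encodes gelatinase A, a secreted enzyme that cuts denatured collagen and basement membrane collagen. Its only probe had a signal of 131 in Ago2 Hem KO against 182 in Control, both brighter than every negative control. It differed by -1.19 on the log2 scale, 2.29-fold lower in Ago2 Hem KO, the fifth lowest of the 8212 genes. The Ago2 Hem KO signal was 43.5 above the background mean and the Control signal 97.0.

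Bgn encodes biglycan, a small proteoglycan that binds collagen fibres and growth factors. Its only probe had a signal of 145 in Ago2 Hem KO against 192 in Control, again brighter than every negative control on both arrays. The difference was -1.04, or 2.06-fold lower, rank 10 from the lowest. Above the background mean the signals were 57.1 and 107. Both Mmp2 and Bgn were thus clearly measured on both arrays, unlike Col5a1 and Igfbp7, whose Control signals lay close to background.

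**Figure D2:**
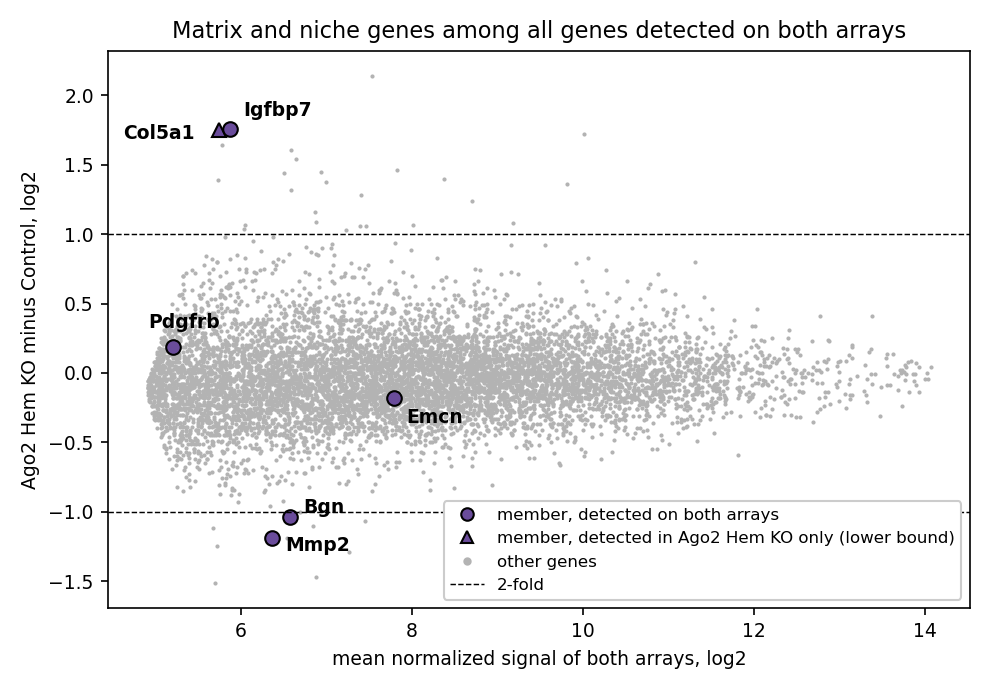
Difference between Ago2 Hem KO and Control (log2, y axis) against mean normalized signal (log2, x axis) for the 8212 genes detected on both arrays (grey) with the detected matrix and niche genes in purple; the triangle is the lower bound of Col5a1 and dashed lines mark 2-fold. Igfbp7 and Col5a1 lie near the top at 1.76 and 1.75, Mmp2 and Bgn near the bottom at -1.19 and -1.04, and Pdgfrb and Emcn inside the cloud.

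Pdgfrb encodes the β receptor of platelet-derived growth factor, which is carried by pericytes and many marrow stromal cells. It had a signal of 114 in Ago2 Hem KO against 101 in Control, where 2 negative controls were as bright, and differed by 0.19 (1.14-fold higher). Emcn encodes endomucin, a sialomucin of venous and sinusoidal endothelium that blood stem cells also carry. It had signals of 299 in Ago2 Hem KO and 284 in Control, 48.2 and 47.4 background SDs above the mean. After normalization it differed by -0.18, and by 0.05 and 0.08 when the arrays were scaled to the same median or not normalized, so its direction depended on the scaling. Both differences, as reported, were below the pooled SD of 0.22 found among probes of the same gene, over 3016 genes with at least 2 probes detected on both arrays. That SD is pooled over all signal levels and does not measure variation between animals or between arrays of a genotype.

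The remaining genes were not detected on either array. They include both chains of type I collagen, the main collagen of bone and tendon. The Col1a1 probe had signals of 88.8 in Ago2 Hem KO and 84.2 in Control, and the Col1a2 probe 93.0 and 82.4. Sparc, which encodes the collagen-binding glycoprotein osteonectin of bone cells, fibroblasts and platelets, stayed at 84.4, 87.1 and 90.1 in Ago2 Hem KO and 84.7, 85.2 and 84.0 in Control on its 3 probes. For Cxcl12 the highest of 5 probes read 98.8 in Ago2 Hem KO, where 20 negative controls were as bright, and 89.1 in Control, where 131 were. Its other probes lay between 83.3 and 89.1 in Ago2 Hem KO and between 81.4 and 85.9 in Control. These signals are not separable from background, and no fold is given for these 4 genes. That no signal was detected does not show that the RNA was absent.

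That these genes lie on both sides of 0 is part of how they were chosen. As a description, Igfbp7 and Mmp2 were 2.96 apart in their log2 differences, and Igfbp7 and Bgn 2.80 apart. A constant scaling of an array shifts all genes alike and cancels in such a distance. Over the main processing and its 9 alternatives the distance of Igfbp7 from Mmp2 ran from 1.31 to 2.96, lowest in the authors' value table. Igfbp7 and Col5a1 were above 0 and Mmp2 and Bgn below 0 in all 10. Among the alternatives, only scaling to the same median, cyclic loess and no normalization could have changed these signs. The 2-fold mark itself was not kept: without background correction Igfbp7 was 1.75-fold and Col5a1 at least 1.72-fold higher, and Mmp2 1.56-fold and Bgn 1.51-fold lower. In bulk RNA, fewer cells of a type and less RNA per cell cannot be told apart.

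**Figure D3:**
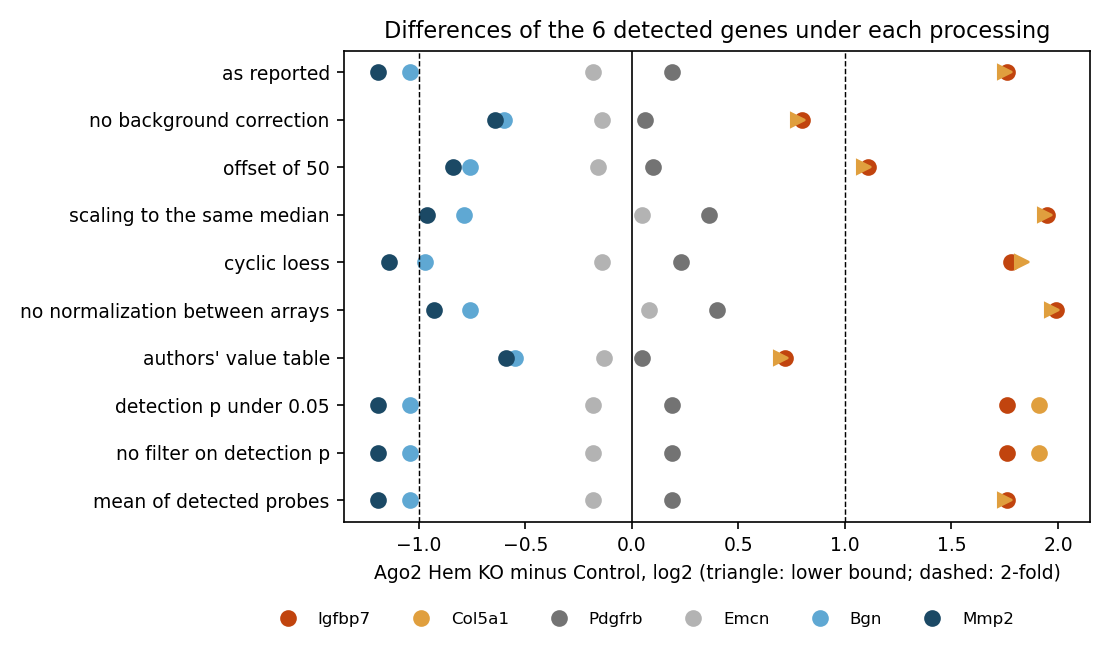
Difference between Ago2 Hem KO and Control (log2, x axis) of the 6 detected genes under the reported processing and 9 alternatives (rows); triangles are lower bounds and dashed lines mark 2-fold. Igfbp7 and Col5a1 stay right of 0 and Mmp2 and Bgn left of 0 in every row, with the smallest distances in the authors' value table.

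Other matrix genes were mostly not detected. Across the lists of collagens, collagen processing, matrix glycoproteins, proteoglycans, metalloproteinases and their inhibitors, 142 genes other than the 10 were on the array. Of these, 108 (76.1%) were not detected on either array, against 53.3% of all named genes. Another 27 were detected on both arrays, with a median difference of -0.03 against -0.05 for all genes, 8 above 0 and 19 below 0, and 4 were detected in Ago2 Hem KO only and 3 in Control only. None of these 34 reached 2-fold in either direction, by value where detected on both arrays and otherwise by bound. The detected probe of the collagen processing gene Serpinh1 differed by -1.06. It was not detected in Ago2 Hem KO, so the gene is counted by its bound, which was below 2-fold. Scaling the arrays to the same median, or not normalizing them, raised the median of all genes by 0.21 and 0.24, so a negative difference smaller than that can turn positive under them. Of the 16 listed genes with at least 2 probes detected on both arrays, 4 had probes of opposite sign (Csf1r, Igf1r, Itga2b and Pecam1), and Bmp1 and Meis1 had probes at least 0.5 apart on the log2 scale, named here after their values were seen. The value given for a gene is that of its brightest probe.

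Of 38 collagen chains, 32 were not detected on either array, among them Col3a1, Col5a2 and Col5a3. Col5a2 encodes the chain with which the product of Col5a1 forms most type V collagen. The basement membrane chains Col4a1 and Col4a2 were detected on both arrays, with signals of 135 and 166 in Ago2 Hem KO against 122 and 156 in Control. Col4a1 differed by 0.00, Col4a2 by -0.16 and Col16a1, a chain found between fibres, by 0.17. Col7a1 and Col18a1 were detected in Ago2 Hem KO only, at 109 and 108 against 93.3 and 94.2, with bounds of 1.13-fold and 1.09-fold. Both bounds lay below that of Col5a1.

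Enzymes that fold and modify collagen were detected more often, at 11 of 25. Several of them also serve other secreted proteins. P4hb, the protein disulfide isomerase subunit of prolyl hydroxylase, had signals of 7202 in Ago2 Hem KO and 7419 in Control and differed by -0.24. The highest of this list was the lysyl hydroxylase gene Plod1 at 0.41 and the lowest the procollagen proteinase gene Bmp1 at -0.54, whose other detected probe differed by -0.02. Serpinh1, which encodes the collagen chaperone HSP47, was detected in Control only, at 108 against 90.2 in Ago2 Hem KO, at least 1.5-fold higher in Control. The list's median was -0.11 over 10 genes.

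Matrix glycoproteins were detected for 8 of 39 genes. Emilin2, an elastic fibre glycoprotein, was highest at 0.49, with 651 in Ago2 Hem KO against 419 in Control, and the laminin γ chain gene Lamc1 lowest at -0.57, at 106 against 112. Fn1, Postn and Mgp were not detected on either array. Of 21 proteoglycan genes, 3 were detected. Bgn was the lowest, Agrn, which encodes agrin, differed by -0.20, and Srgn, which encodes serglycin of blood cell granules, by 0.53 at signals of 2183 and 1319. Dcn and Lum, which encode other small proteoglycans, were not detected on either array.

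Among 20 metalloproteinase genes, 5 were detected on both arrays and all 5 lay at or below 0, while 58.1% of all genes lay below 0. Mmp2, selected on its signals, was lowest. Mmp1a and Mmp28 differed by -0.19 and -0.03, at signals of 115 and 128 in Ago2 Hem KO against 111 and 117 in Control. Both differences were smaller than the shift of 0.21 that scaling to the same median gave all genes. Mmp24, which encodes a membrane-bound enzyme, differed by -0.30 at signals of 263 in Ago2 Hem KO and 264 in Control, and Mmp14, whose product activates the Mmp2 proenzyme, by 0.00 at 134 and 121. Mmp9, the gelatinase of neutrophils, was detected in Control only, at 103 against 98.3 in Ago2 Hem KO, with a bound of 1.31-fold after normalization. Both signals lay near the lowest detected signal of their array, 97.8 in Control and 101 in Ago2 Hem KO. A bound this small depends on the background correction and the normalization. The inhibitor genes Reck, Timp3 and Timp2 differed by 0.39, 0.25 and -0.08. No other metalloproteinase or inhibitor gene reached the difference of Mmp2.

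In the insulin-like growth factor list, 4 of 12 genes were detected and only Igfbp7 passed 2-fold. Igfbp4 had signals of 2912 in Ago2 Hem KO and 3051 in Control and differed by -0.28, and the receptor genes Igf1r and Igf2r by 0.05 and 0.12. Igfbp3 and Igfbp5, other binding proteins of vessels and stroma, were not detected. In the platelet-derived growth factor list, Pdgfa differed by 0.11 beside Pdgfrb, Pdgfb was detected in Control only at 97.9 against 97.6, and Pdgfra, a receptor of marrow stromal cells, was not detected. Of 14 niche ligand and receptor genes, 7 were detected. The blood cell receptor genes Cxcr4 and Kit both differed by 0.22, Csf1r by 0.39 on its brighter probe and -0.11 on the other, and Tek by -0.62, with a list median of -0.02. The CXCL12 receptor was thus measured, at 369 and 283, while its ligand was not.

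**Figure D4:**
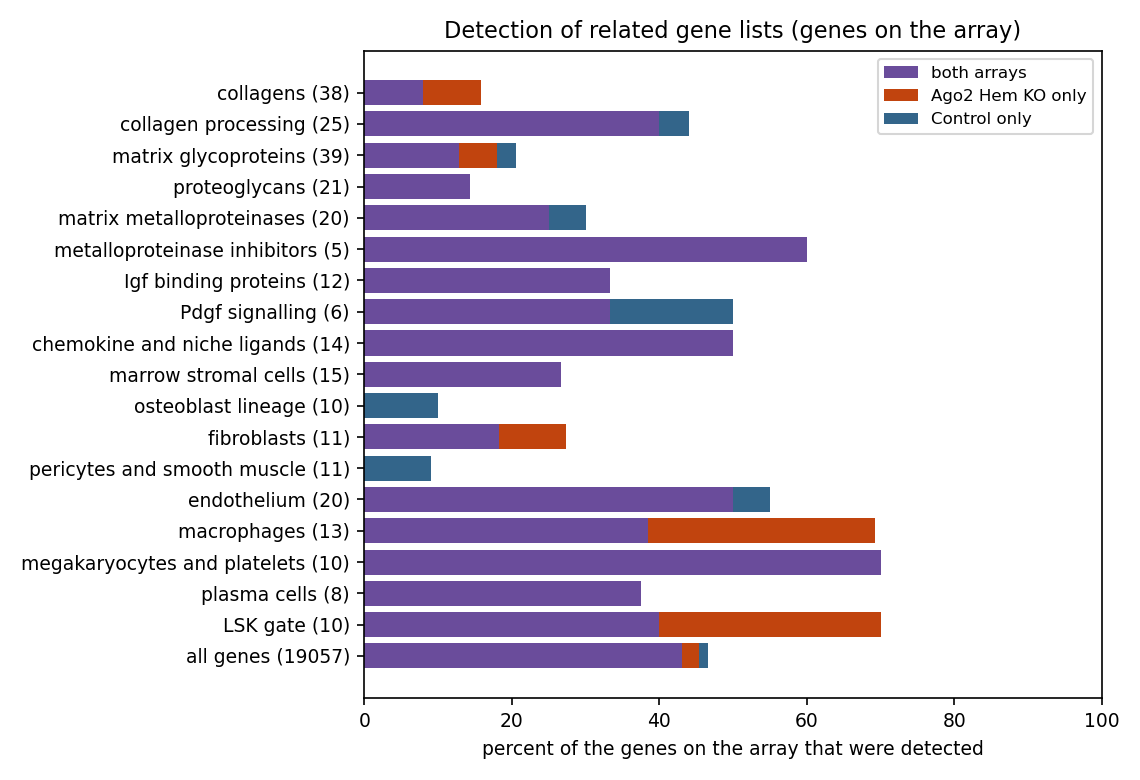
Percent of the genes of each list on the array (number in brackets) that were detected on both arrays, in Ago2 Hem KO only or in Control only. Osteoblast, pericyte and smooth muscle lists had no gene detected on both arrays, while 10 of 20 endothelial genes were.

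Markers of the cells that make matrix were examined beside these results. Joined and without the 10 genes, the lists of marrow stromal cells, osteoblasts, fibroblasts, and pericytes and smooth muscle had 44 genes on the array, of which 35 (79.5%) were not detected on either. Those not detected include Lepr, Foxc1, Ebf3, Pdgfra, Adipoq and Kitl of stromal cells, Sp7, Bglap and Ibsp of osteoblasts, Dcn, Lum and Fap of fibroblasts, and Rgs5, Cspg4 and Myh11 of pericytes and smooth muscle. The 6 detected on both arrays had a median difference of -0.03, 3 above and 3 below 0. Their summed normalized signal, with the genes detected on 1 array included, was 1485 in Ago2 Hem KO and 1458 in Control. Most of it came from Vcam1, at signals of 1128 and 888, a gene that marrow macrophages and blood progenitors also express and that the macrophage list holds too. In these lists Lpl was highest at 0.51 and Thy1, also a gene of T cells, lowest at -0.70, while the fibroblast markers Pi16 and Gsn differed by -0.43 and -0.11, Pi16 at 246 against 263. Alpl of osteoblasts and Acta2 of smooth muscle were detected in Control only, at 98.1 and 102 against 101 and 93.5 in Ago2 Hem KO.

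Endothelial markers, counted here without Emcn, which their list also holds, were detected for 10 of 19 genes. Of the 9 detected on both arrays 8 lay below 0 (88.9%), as did 58.1% of all genes, with a median of -0.28 against -0.05 for all genes. When the arrays were scaled to the same median, 6 of the 9 lay below 0, and without normalization 5. No gene of the list reached 2-fold. Esam, Egfl7, Stab1, Tie1, Flt1 and Robo4 differed by -0.57, -0.55, -0.43, -0.32, -0.28 and -0.23, and Pecam1 was highest at 0.06, with -0.31 on its other detected probe. Another Stab1 probe went the opposite way. It was detected in Ago2 Hem KO only, at 117 against 95.7 in Control, and differed by 0.58. The other detected Egfl7 probes differed by -0.50 and -0.31. The summed normalized signal was 4199 in Ago2 Hem KO and 5769 in Control, mostly from Stab1 (2129.9 against 2469) and Egfl7 (1729 against 2147). Many of these genes are also expressed by blood stem cells. Detected on both arrays were also Plvap, at 104 against 100.3, and Vwf, at 224 against 202, while Cdh5, Kdr, Flt4, Stab2, Sele, Cldn5, Sox17, Sox18 and Lyve1 were not detected on either. Relative to the median of all genes the median without Emcn was below 0 under all 9 alternatives, from -0.23 to -0.09.

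Of 13 markers of marrow macrophages, 5 were detected on both arrays with a median of 0.23, 4 of them above 0, as were 41.8% of all genes. Another 4 (30.8%) were detected in Ago2 Hem KO only, as were 2.31% of all genes. Among these, C1qa and Cd163 both read 108 in Ago2 Hem KO, against 90.2 and 91.8 in Control. That is near the lowest detected signal of 101, and their bounds were only 1.09-fold and 1.11-fold. The list of genes of the sort gate and of blood cells lay as far in the same direction. Its median was 0.31 relative to that of all genes, against 0.28 for the macrophage list, with 3 of 10 detected in Ago2 Hem KO only. That median rests on Kit, Cd34, Gata2 and Meis1, of which only Kit defines the gate. C1qc and C1qb, complement genes of tissue macrophages, read 171 and 164 in Ago2 Hem KO against 94.2 and 93.9 in Control, at least 2.94-fold and 2.75-fold higher. These bounds fell below 2-fold with an offset of 50 (1.92 and 1.83), without background correction (1.59 and 1.53) and in the authors' value table (1.51 and 1.46). Slc40a1, the iron exporter, differed by 0.66 at signals of 1460.1 and 811, and Spic was lowest at -0.18. Relative to the median of all genes the list's median was above 0 under all 9 alternatives, between 0.15 and 0.44. The summed normalized signal was 2528 in Ago2 Hem KO and 1804 in Control. Most of it came from Slc40a1 and from Vcam1 (1128 against 888), which blood progenitors also express. Adgre1, Siglec1, Cd5l and Timd4 were not detected on either array. The part of these cells in the Igfbp7 and Col5a1 signals was not tested.

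Among 8 plasma cell markers, Mzb1 and Pou2af1 were 2.61-fold and 2.63-fold higher in Ago2 Hem KO, at 298 and 166 against 141 and 99.5. Xbp1, the third detected, differed by -0.18 at 3723 and 3613, and Jchain, Prdm1, Sdc1, Irf4 and Tnfrsf17 were not detected. The median was 1.38 over these 3 genes, and the summed normalized signal, most of it Xbp1, was 3635 in Ago2 Hem KO and 3903 in Control. Megakaryocyte and platelet markers, examined because platelets hold Sparc, were detected for 7 of 10 genes with a median of -0.09, from Pf4, the brightest, at 0.58 (374 against 238) to Gp1bb at -0.51, and a summed signal of 1057 in Ago2 Hem KO and 1017 in Control. Genes of the sort gate and of blood cells had a median of 0.26 over 4 genes, from Gata2 at 0.45 to Meis1 at 0.14. A dimmer Meis1 probe, at 267 against 137, differed by 1.25, and with the mean of detected probes Meis1 was highest at 0.70 and the list's median was 0.37. The part of plasma cells or of the composition of the sort in the matrix gene differences was not tested.

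**Figure D5:**
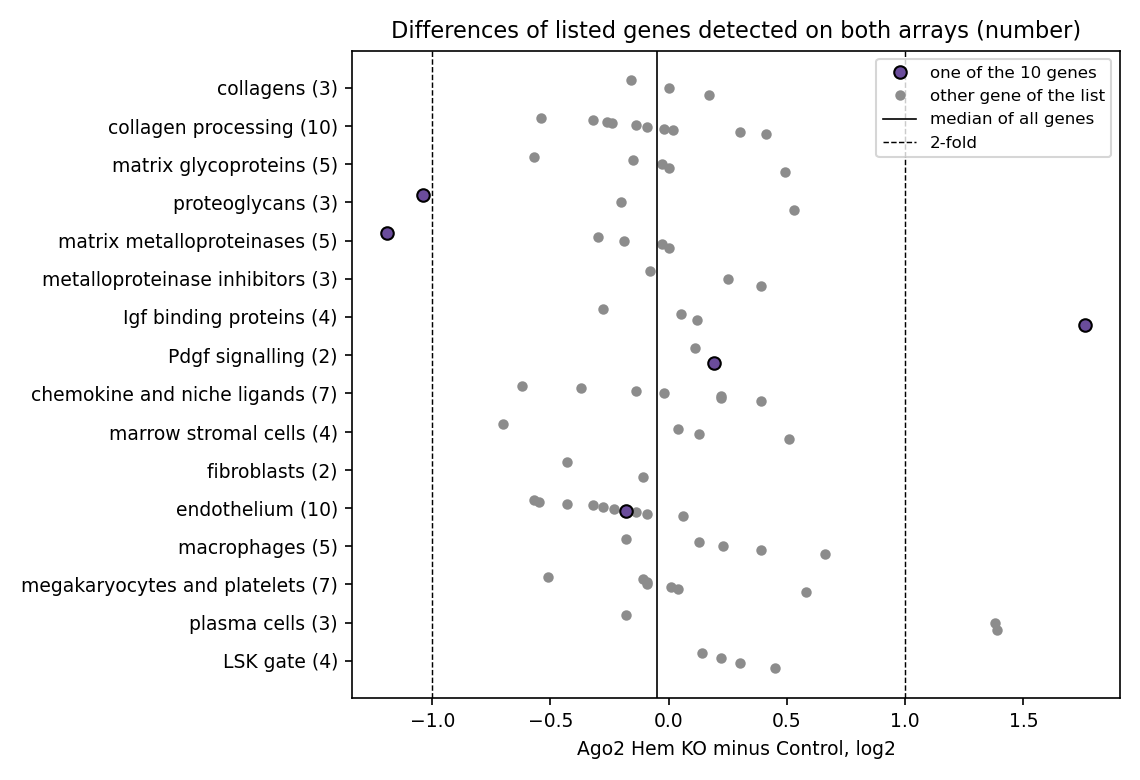
Difference between Ago2 Hem KO and Control (log2, x axis) of every listed gene detected on both arrays, by list (number in brackets), with the matrix and niche genes in purple, the median of all genes as a solid line and 2-fold as dashed lines. Bgn and Mmp2 lie left of every other gene of their lists and Igfbp7 right of every other gene of its list, and Mzb1 and Pou2af1 are the remaining genes past 2-fold.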

How the data were processed

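Mean bead intensity on a linear scale, not normalized between arrays, and a detection p-value per probe were deposited by the authors for both arrays, per the file headers. RNA was amplified and biotin-labelled for Illumina bead arrays, per the labels' protocols, and the submitters' processing notes name BeadStudio without a version. A second deposited table holds intensity that the authors normalized, by an unstated method. Its columns share 1 median (86.2), and each column ranks probes as the array of the same sample does (Spearman 1.0000, against 0.8833 for the other array), which settles its direction. It served as an alternative.

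Background was inferred from detection p-values, whose steps match 936 negative controls, and corrected by normexp in limma 3.58.1 (R 4.3.3), with an offset of 16, quantile normalization and log2. The offset shrinks differences of dim probes and quantile normalization removes changes shared by most genes. Symbols came from the platform annotation, updated through RefSeq (GRCm38.p6): 34885 probes had 1 symbol, of which 34807 matched, 18 had several and 10378 none. A gene's value is that of its brightest probe detected on both arrays. A gene detected on 1 array has a bound, set against the dim array's lowest detected value or, if higher, what the probe read there; 14 genes detected by different probes on each array have none. Summed signals are normalized signals less the offset, over detected genes. The steps were tested on simulated arrays. Only genes with Control signals above those of Col5a1, Igfbp7 and Pdgfrb were changed there, so changes in genes that dim in Control were not covered.

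The 10 genes and 18 related lists were chosen with earlier results of these data known. Named genes are the 10, and in each list those past 2-fold (if none, the highest and lowest) and the brightest; others, named as undetected markers or partners, were chosen after their values were seen. With 2 arrays any 2 genes correlate fully, so no gene is named for a similar pattern. With 1 array per genotype, precision is limited by the number of arrays.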

Additional observations from a re-analysis of the deposited data

How the results depend on the processing

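The signs of the differences of Col5a1, Igfbp7, Mmp2, Bgn and Pdgfrb were kept under all 9 alternatives, and that of Emcn under 7. Most alternatives could not change these signs. Those in detection p and in the averaging of probes reuse the reported normalized values. Without background correction, with an offset of 50 and in the authors' table, 3434 of 8212 genes lay above 0, as in the main processing. Signs could change under scaling to the same median, cyclic loess and no normalization, and Emcn changed under the first and last. Whether a difference reached 2-fold depended on the processing. Igfbp7 and Col5a1 passed 2-fold under 7 of the 9, Mmp2 under 4 and Bgn under 3. Igfbp7, Mmp2 and Bgn, each with 1 detected probe, could not change under the alternatives in detection p and in the averaging of probes. All passes of Bgn were under these alternatives, as were those of Mmp2 except under cyclic loess. Members at least 2-fold higher and detected on both arrays numbered 1 as reported, 0 without background correction and in the authors' value table, and 2 with a detection p under 0.05 or no filter on it, where Col5a1 has a value and its bound is no longer counted (0 with p under 0.05). Bounds past 2-fold numbered 0 without background correction and in the authors' table. Members at least 2-fold lower numbered 2 as reported, 1 under cyclic loess, and 0 without background correction, with an offset of 50, under scaling to the same median, without normalization between arrays and in the authors' table. Over all genes, 25 were higher and 11 lower as reported, against 6 and 0 without background correction and in the authors' table, 15 and 2 with an offset of 50, 60 and 4 under scaling to the same median, and 70 and 4 without normalization. Bounds past 2-fold over all genes numbered 4 as reported, 0 without background correction and in the authors' table, 1 with an offset of 50 and 9 without normalization. The bound was not run with no filter on detection p, since no gene is then detected on 1 array only.

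Scaling to the same median and leaving out normalization shifted the median of all genes by 0.21 and 0.24, so list medians were followed relative to it. A value counts as moved where it changed by more than 0.22, the pooled SD among probes of a gene. No list with at least 3 detected genes moved by that much except plasma cells, at 1.43 as reported, 0.63 without background correction, 0.89 with an offset of 50, 0.57 in the authors' table, 0.72 with a detection p under 0.05 and 0.07 with no filter. The loss of background correction also leaves dim genes closer to 0 by its construction. No paired analysis was possible because each genotype has 1 array. Signals of Col5a1 and Igfbp7 in the Control sample, at 2.47 and 3.37 background SDs, limit how far their folds can be known.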
